A study of Mus musculus with 9 samples.

Results

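The muscle nicotinic acetylcholine receptor genes *Chrna1*, *Chrnb1*, *Chrnd*, *Chrne* and *Chrng*, the neuronal-type receptor gene *Chrna7* and the receptor modulator gene *Lynx1* were described in newborn mouse gastrocnemius, a hindlimb calf muscle. They are 7 of the 55471 genes of the count table and were found by matching Ensembl IDs to these symbols. The set was selected on measured values, since its genes were picked after the genotype comparison in these mice was known. The 9 mice were on a C57BL/6 background at postnatal day 0 to 1, with 5 *Shank3Δ11(−/−)* mice (KO1 to KO5), which carry a homozygous deletion in the postsynaptic scaffold gene *Shank3*, and 4 *Shank3(+/+)* mice (WT1 to WT4). The study analysed KO1, KO3 and KO5 against the 4 WT mice and left out KO2 and KO4 for low read numbers. In the deposited table KO4 has the highest total of the 9 mice and KO5 the lowest, so values are given for all 9 mice, and differences of the 7 genes for both 7 and 9 mice. Each library is 1 mouse.

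The muscle receptor is a pentamer in the postsynaptic membrane that opens when the motor nerve releases acetylcholine. It is built from a pair of alpha1 subunits (*Chrna1*, which carry most of the binding site), 1 beta1 (*Chrnb1*), 1 delta (*Chrnd*) and 1 further subunit. In fetal and denervated muscle that place is taken by gamma (*Chrng*), and in innervated adult muscle by epsilon (*Chrne*), which shortens channel opening. The exchange of gamma for epsilon runs around and after birth in the mouse. *Chrna7* encodes alpha7, which forms receptors of its own subunit in neurons and other cells, and *Lynx1* encodes a membrane-anchored protein of the Ly6/uPAR family that binds nicotinic receptors and dampens their response.

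Library totals ranged from 26444372 to 40471957 counts. The sum of 18 muscle fibre marker genes was 63946 to 73482 CPM (counts scaled to library size) in the 9 mice, so the tissue label held in every library. *Xist*, which is expressed from the inactive X chromosome, stood at 619 to 925 CPM in 2 KO mice (KO3 and KO5) and 2 WT mice (WT3 and WT4). In the other 5 mice it was at 3.23 CPM or less, so each genotype held mice of both kinds. *Shank3* was at 25.7 to 35.0 CPM in the KO mice and 32.4 to 38.5 CPM in the WT mice. Reads over the whole gene therefore did not separate the genotypes, and the deleted part was not resolved in a gene count. In a bulk tissue, fewer cells of a type and less RNA per cell cannot be told apart.

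The promoters of the fetal and adult subunits are shown first, because the gamma to epsilon balance is the main pattern described here. RefSeq (GRCm38.p6) held an entry for 5 of the 7 genes, *Chrna1*, *Chrnb1*, *Chrne*, *Chrng* and *Chrna7*. The 250 bases before the start are printed 5′ to 3′ on the gene's own strand. Capitals mark E-boxes (CANNTG, which reads the same on both strands), the site of MyoD-family factors, and the N-box (CCGGAA, searched on both strands), the site of the ETS factor GABP. *Chrng* lies at chr1:87205561-87205810 on the plus strand, *Chrne* at chr11:70619195-70619444 on the minus strand and *Chrna1* at chr2:73580339-73580588 on the minus strand.
Chrng: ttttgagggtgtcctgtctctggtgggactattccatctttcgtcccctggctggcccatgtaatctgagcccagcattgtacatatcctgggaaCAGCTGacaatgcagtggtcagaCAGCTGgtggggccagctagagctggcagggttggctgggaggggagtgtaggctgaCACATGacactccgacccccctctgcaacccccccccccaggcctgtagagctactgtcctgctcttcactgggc
Chrne: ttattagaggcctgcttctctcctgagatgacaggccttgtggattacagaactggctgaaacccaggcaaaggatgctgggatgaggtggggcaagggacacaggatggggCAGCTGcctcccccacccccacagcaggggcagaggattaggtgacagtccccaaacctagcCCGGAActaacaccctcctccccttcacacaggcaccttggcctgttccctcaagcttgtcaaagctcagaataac
Chrna1: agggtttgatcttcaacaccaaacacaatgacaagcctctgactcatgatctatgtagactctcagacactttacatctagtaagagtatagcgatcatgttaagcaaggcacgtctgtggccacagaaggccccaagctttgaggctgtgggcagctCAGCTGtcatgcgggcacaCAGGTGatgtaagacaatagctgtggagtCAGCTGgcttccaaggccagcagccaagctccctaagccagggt

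The *Chrng* window holds 3 E-boxes, of which 2 have the form CAGCTG, and no N-box. The *Chrne* window holds 1 E-box, a CAGCTG starting 138 bases before the start, and 1 N-box starting 76 bases before it. The *Chrna1* window holds 3 E-boxes, 2 of them CAGCTG, and no N-box. *Chrnb1* has 3 E-boxes and *Chrna7* 2, none of the form CAGCTG. Among all 32851 promoter windows of this length, 66.22% hold an E-box, 13% a CAGCTG (these are counted among the E-boxes) and 12.03% an N-box. The match is of letters only and was not tied to binding. In GENCODE M21 (GRCm38) the *Chrng* gene starts further upstream, at 87204657, so the *Chrng* window lies inside the annotated gene.

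The 5 muscle subunits fell into a high and a low tier. *Chrnb1*, *Chrna1*, *Chrng* and *Chrnd* had medians over the 9 mice of 44.5, 29.4, 30.3 and 26.7 CPM per kb of exon (union of all exons in GENCODE M21), and *Chrne* had a median of 1.48. *Lynx1* had a median of 0.920 and *Chrna7* of 0.0983 on the same scale. *Chrnb1* was the highest and *Chrna7* the lowest of the 7 genes in 9 of 9 mice. *Chrna1*, *Chrng* and *Chrnd* changed places between mice: *Chrna1* was above *Chrng* in 5 of 9 mice and above *Chrnd* in 5 of 9. *Chrng* was above *Chrnd* in 8 of 9 mice. The *Chrna1* to *Chrng* ratio ran from 0.636 to 1.67 and *Chrna1* to *Chrnd* from 0.738 to 1.81. Per kb of exon *Chrna1* therefore did not differ from either beyond its spread. The *Chrnd* to *Chrng* ratio ran from 0.688 to 1.01 per kb of exon, and *Chrng* was above *Chrnd* in 9 of 9 mice per kb of coding sequence or longest transcript.

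The order depended on the length used. Per kb of coding sequence *Chrnb1* no longer led throughout: *Chrna1* was above it in 7 of 9 mice. On that scale *Chrna1* was above *Chrnd* in 9 of 9 mice (ratio 1.12 to 2.75). Per kb of longest transcript *Chrna1* was above *Chrng* in 1 of 9 mice (median ratio 0.678). *Chrne* was above *Lynx1* in 5 of 9 mice per kb of exon and in 0 of 9 per kb of coding sequence, because most of the *Lynx1* exon length is not coding (348 of 4662 bases). The gap between *Chrng* and *Chrne* held on each length scale.

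In GENCODE M21 the 2 genes next to each other, *Chrnd* (ENSMUSG00000026251) and *Chrng* (ENSMUSG00000026253), lie on the plus strand of chromosome 1 at 87190607 to 87200070 and 87204657 to 87212694. *Chrna1* (ENSMUSG00000027107) lies on chromosome 2 at 73563215 to 73580338 on the minus strand. *Chrnb1* (ENSMUSG00000041189) and *Chrne* (ENSMUSG00000014609) lie on the minus strand of chromosome 11 at 69784036 to 69795943 and 70614883 to 70619216. *Chrna7* (ENSMUSG00000030525) covers 63098692 to 63212569 on the minus strand of chromosome 7. Each is protein coding, and counts were taken over whole genes. *Chrnb1* is flanked closely by *Zbtb4* (12 bases away) and *Fgf11* (124 bases away), which were at 24.5 to 38.4 and 20.0 to 32.7 CPM.

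**Figure D1:**
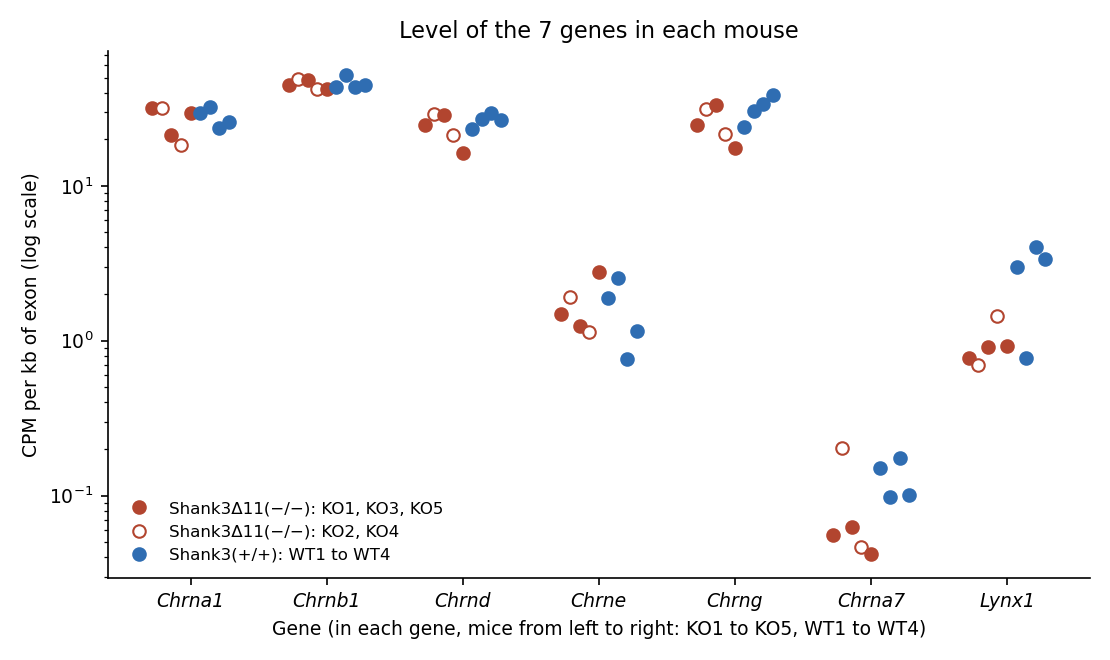
Level of the 7 genes in each of the 9 mice, as CPM per kb of exon on a log axis, with 1 point per mouse. Filled red points are KO1, KO3 and KO5, open red points KO2 and KO4, and blue points WT1 to WT4. *Chrnb1* is highest and *Chrna7* lowest in every mouse, and WT2 lies among the KO mice for *Lynx1*.

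The fetal gamma subunit outweighed the adult epsilon subunit in 9 of 9 mice. *Chrng* was at 102, 130, 139, 90.5 and 73.2 CPM in KO1 to KO5 and at 99.3, 126, 140 and 161 CPM in WT1 to WT4. *Chrne* was at 2.50, 3.26, 2.11, 1.92 and 4.71 CPM in KO1 to KO5 and at 3.20, 4.31, 1.30 and 1.95 CPM in WT1 to WT4. The lowest *Chrng* and the highest *Chrne* were in the same mouse, KO5, and the genotypes overlapped for both genes.

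Per kb of exon, the gamma share of gamma plus epsilon was 94.3%, 94.2%, 96.4%, 95.04% and 86.3% in KO1 to KO5 and 92.6%, 92.2%, 97.8% and 97.1% in WT1 to WT4. The ratio of gamma to epsilon therefore spanned 6.32 in KO5 to 43.8 in WT3, with a median of 16.6. The mean share was 92.3% ± 5.31 (SD, n = 3) in the KO mice of the study, 93.3% ± 3.97 (SD, n = 5) in all KO mice and 94.9% ± 2.91 (SD, n = 4) in the WT mice. The difference between genotypes was smaller than the SD within either. Taking coding length in place of exon length raised the median share to 97.5%, and the longest transcript gave 96.0%.

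**Figure D2:**
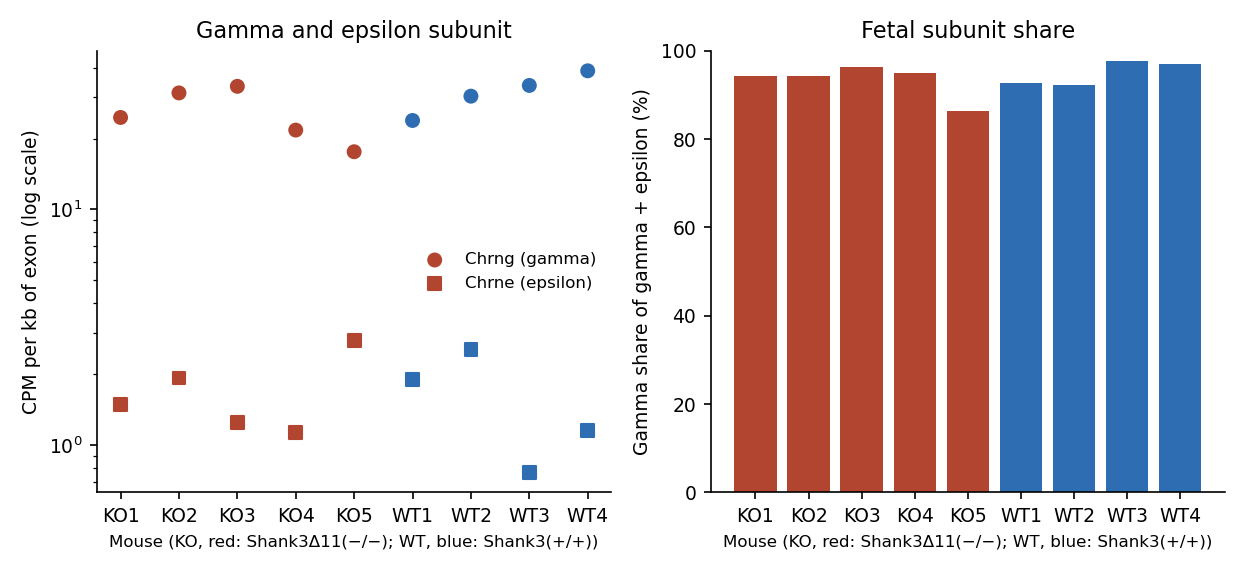
Left, *Chrng* (circles) and *Chrne* (squares) in CPM per kb of exon on a log axis for each mouse. Right, the gamma share of gamma plus epsilon in percent. KO mice are red and WT mice blue, with 1 value per mouse and no error bar. The share lies between 92.2% and 97.8% except in KO5, at 86.3%.

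In KO5, *Chrng* and *Chrnd* were 0.572 and 0.605 times the median of the other 8 mice, and *Chrne* was 2.04 times that median. *Chrna1* (1.06 times) and *Chrnb1* (0.947 times) were near it. *Myh3*, the embryonic myosin heavy chain, was 0.473 times the median of the others in KO5 (2093 CPM), and *Musk*, the receptor kinase that organises the postsynaptic membrane, was 0.492 times (9.07 CPM). *Myh8*, the perinatal myosin, was highest in KO5 at 19500 CPM, against 13555 to 17125 CPM in the other mice. KO5 also stood apart in markers of other cells. The summed adipocyte markers (9 of 9 genes found, none at 0 in all mice) were at 1150 CPM in KO5 and 205 to 417 CPM elsewhere. The summed Schwann cell markers (10 of 10 found, none at 0 in all mice) were at 800 CPM in KO5 and 437 to 572 CPM elsewhere, while its muscle fibre sum, 69075 CPM, lay inside the range of the others. Their part in the gamma to epsilon value was not tested.

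**Figure D3:**
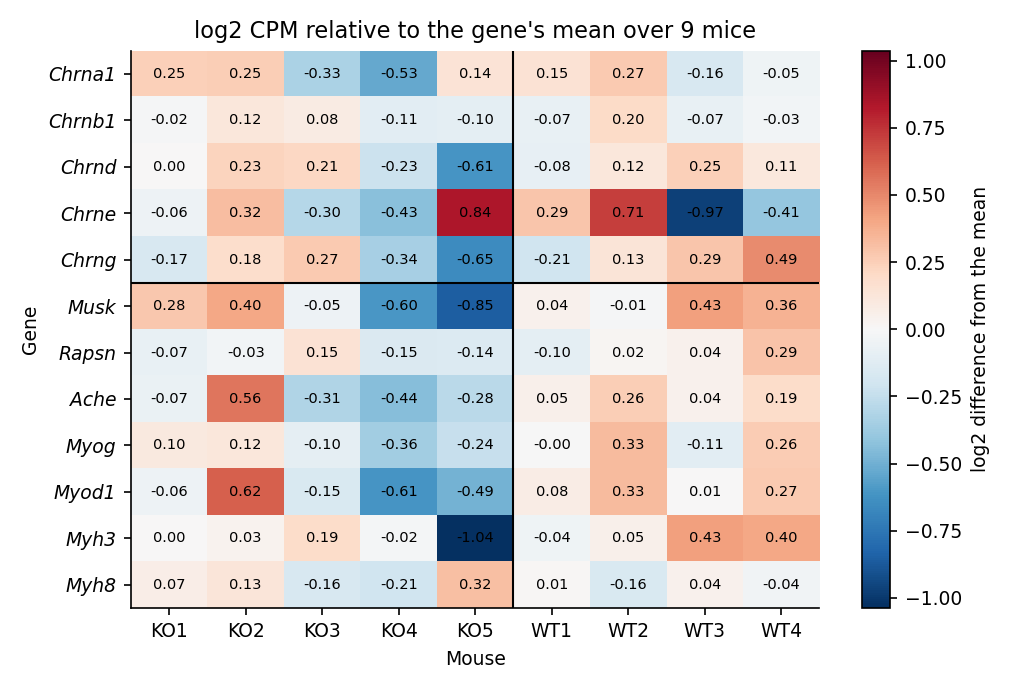
log2 CPM of 12 genes in each mouse relative to the gene's mean over the 9 mice (colour and printed value). The upper 5 rows are the muscle receptor subunits and the vertical line separates KO from WT mice. KO5 has the lowest *Chrnd*, *Chrng*, *Musk* and *Myh3* and the highest *Chrne* and *Myh8*.

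The shared subunits varied less. *Chrnb1* was at 114, 124, 122, 107 and 107 CPM in KO1 to KO5 and at 109, 132, 109 and 113 CPM in WT1 to WT4, the narrowest spread of the 7 genes (highest over lowest 1.24). *Chrna1* was at 139, 139, 93.0, 80.5 and 129 CPM in the KO mice and at 130, 141, 104 and 113 CPM in the WT mice. The 5 mice at 129 CPM or above were KO1, KO2, KO5, WT1 and WT2, so the split did not follow genotype. *Chrna1* and *Chrnb1* were both lowest in KO4 and both highest in WT2. KO4 also had the highest sum of cartilage markers (449 CPM against 104 to 181 CPM elsewhere). Its fibroblast sum was highest too (31714 CPM against 15454 to 25286 CPM elsewhere), but collagen genes such as *Col1a1* (12973 CPM) made up most of it. Among the other fibroblast markers *Dcn*, *Lum* and *Ly6a* were highest in KO4. *Pdgfra*, *Gsn* and *Osr1* (121, 366 and 23.0 CPM) were below their means over the 9 mice (127, 377 and 25.4 CPM). The part of these sums in the *Chrna1* and *Chrnb1* levels was not tested.

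*Chrnd* was at 81.8, 95.6, 94.4, 69.7 and 53.3 CPM in KO1 to KO5 and at 76.9, 88.4, 96.8 and 87.7 CPM in WT1 to WT4. Its gene lies 4586 bases upstream of *Chrng* on the same strand of chromosome 1. Across the 9 mice log2 CPM of *Chrnd* and *Chrng* had a Pearson r of 0.90, the highest of the pairs among the 7 genes, given as a description of points that share libraries and scaling. *Eif4e2*, the next gene after *Chrng* at 1219 bases, was at 92.3 to 113 CPM and did not show the low value in KO5.

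Between genotypes, none of the 5 muscle subunits separated. On the log2 scale, the fitted KO minus WT difference in the 7 mice was −0.03 ± 0.15 (SE) for *Chrna1*, −0.03 ± 0.11 for *Chrnb1* and −0.20 ± 0.17 for *Chrnd*. It was −0.34 ± 0.22 for *Chrng* and 0.19 ± 0.40 for *Chrne*. Single mice moved these values. Without KO5 the difference was −0.14 for *Chrng*, −9.8e-04 for *Chrnd* and −0.24 for *Chrne*, and without KO3 it was −0.60, −0.38 and 0.40 in the same order. *Chrne* ran from −0.03 without WT3 to 0.51 without WT2 when 1 WT mouse was left out. *Chrng* was −0.22 without WT4. With all 9 mice the values were −0.07 ± 0.17, −0.01 ± 0.09, −0.15 ± 0.15, −0.30 ± 0.19 and 0.09 ± 0.35 in the same gene order. For each subunit the KO and WT mice overlapped. These differences are a description with no test, because the genes were chosen with this contrast known.

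**Figure D4:**
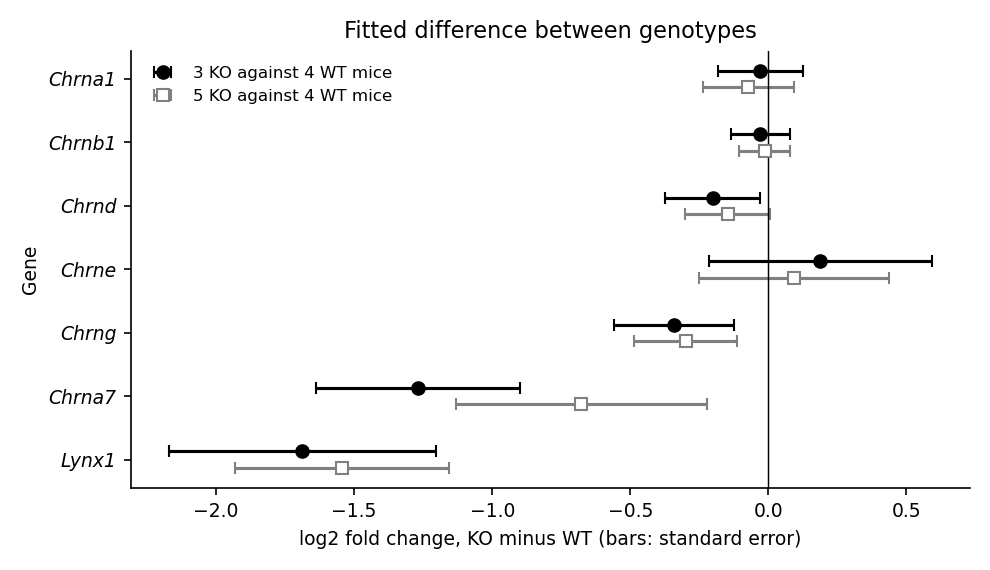
Fitted log2 fold change, KO minus WT, of the 7 genes with its standard error (bars). Black circles are the fit of 3 KO against 4 WT mice and open grey squares 5 KO against 4 WT mice. *Chrna7* moves from −1.27 to −0.68 when KO2 and KO4 are added, and *Lynx1* from −1.69 to −1.54.

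*Lynx1* had the largest fitted difference of the 7 genes. It was at 3.60, 3.26, 4.28, 6.75 and 4.29 CPM in KO1 to KO5 (96 to 257 counts) and at 14.0, 3.60, 18.7 and 15.7 CPM in WT1 to WT4 (454, 122, 549 and 483 counts). In 3 of 4 WT mice the level was above all 5 KO mice. WT2 lay inside the KO range and made the groups overlap. The share of counts from mitochondrial genes split the 7 mice in the same way, at 5.17% to 6.54% in KO1, KO3, KO5 and WT2 and 3.81% to 4.36% in WT1, WT3 and WT4. KO2, with the lowest *Lynx1*, was at 3.98%, outside that split, and KO4 was at 7.88%. The part of this share in the *Lynx1* values was not tested. The 95% Poisson interval of the *Lynx1* count in WT2, 101 to 146, lies below that of WT1, 413 to 498. These intervals cover counting error only, not the spread between mice.

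The mean of *Lynx1* was 4.05 ± 0.394 CPM (SD, n = 3) in the study's KO mice, 4.43 ± 1.37 CPM (SD, n = 5) in all KO mice and 13.001 ± 6.57 CPM (SD, n = 4) in the WT mice. The fitted log2 difference was −1.69 ± 0.48 in 7 mice and −1.54 ± 0.39 in 9. Without WT2 it was −2.001 in the 7-mouse comparison. Within the mice of high *Xist* the difference of mean log2 CPM was −1.99 (KO3 and KO5 against WT3 and WT4). Within those of low *Xist* among the 7 mice it was −0.97, with KO1 as the only KO mouse against WT1 and WT2. These values have no test.

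*Lynx1* lies on chromosome 15 at 74747852 to 74753046 on the minus strand, 14.747 Mb from *Shank3* on the same chromosome. Its neighbours gave few reads: *Slurp2*, 1158 bases away and also of the Ly6/uPAR family, had 0 or 1 count per mouse. *Ly6d*, 9009 bases away, had 1 to 16 counts, with the lowest in WT3, where *Lynx1* was highest. The genes whose log2 CPM was most like *Lynx1* over the 9 mice, chosen as the highest of 21734, were *Nt5m* (r = 0.943), *Robo1* (r = 0.892) and *Aggf1* (r = 0.889). *Nt5m*, a mitochondrial nucleotidase, ranged only from 12.5 to 15.5 CPM.

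*Chrna7* was close to the detection floor. Its counts were 8, 27, 9, 8 and 5 in KO1 to KO5 and 22, 15, 23 and 14 in WT1 to WT4, or 0.250, 0.916, 0.283, 0.210 and 0.190 CPM against 0.677, 0.443, 0.785 and 0.455 CPM. In the 7 mice the KO mice lay below all WT mice, as did 1.3% of all genes tested, and nothing is read from this because the gene was chosen with the contrast known. KO2 had the highest level of all 9 mice and broke the separation. The 4 mice with 3.81% to 4.36% of counts from mitochondrial genes (KO2, WT1, WT3 and WT4) held 0.455 to 0.916 CPM of *Chrna7*, and the 5 mice at 5.17% to 7.88% held 0.190 to 0.443 CPM. These groups meet between WT4 (14 counts, Poisson interval 7.65 to 23.5) and WT2 (15 counts, interval 8.40 to 24.7). The intervals overlap, so the counts do not separate WT4 from WT2. How many of all genes split the mice in this way was not counted. The part of the mitochondrial share in the *Chrna7* values was not tested. In 9 mice 0.363% of genes had all KO mice below all WT mice, and none of the 7 described here were among them.

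The fitted log2 difference of *Chrna7* was −1.27 ± 0.37 in 7 mice and −0.68 ± 0.45 in 9. The 95% Poisson interval of the count was 3.45 to 15.8 in KO1 and 8.40 to 24.7 in WT2, so these intervals overlap. Those of KO5 (1.62 to 11.7) and WT3 (14.6 to 34.5) do not. *Chrna7* passed the filter on low counts (0.318 CPM) through the WT mice alone, with 0 KO and 4 WT mice at or above it, and the other 6 genes passed it in all 7 mice. The summed motor neuron and axon markers, of which 2 of 11 genes were at 0 in all mice, were at 16.0 to 26.7 CPM in KO and 19.8 to 21.8 CPM in WT mice and were lowest in KO1 and KO2. KO2 held the highest *Chrna7* (0.916 CPM) and KO1 held 0.250 CPM. The part of these markers in the *Chrna7* values was not tested. *Gpr17* (r = 0.963), *Gm17364* (r = 0.957) and *Gm15777* (r = 0.934) had the most similar profile over 9 mice.

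**Figure D5:**
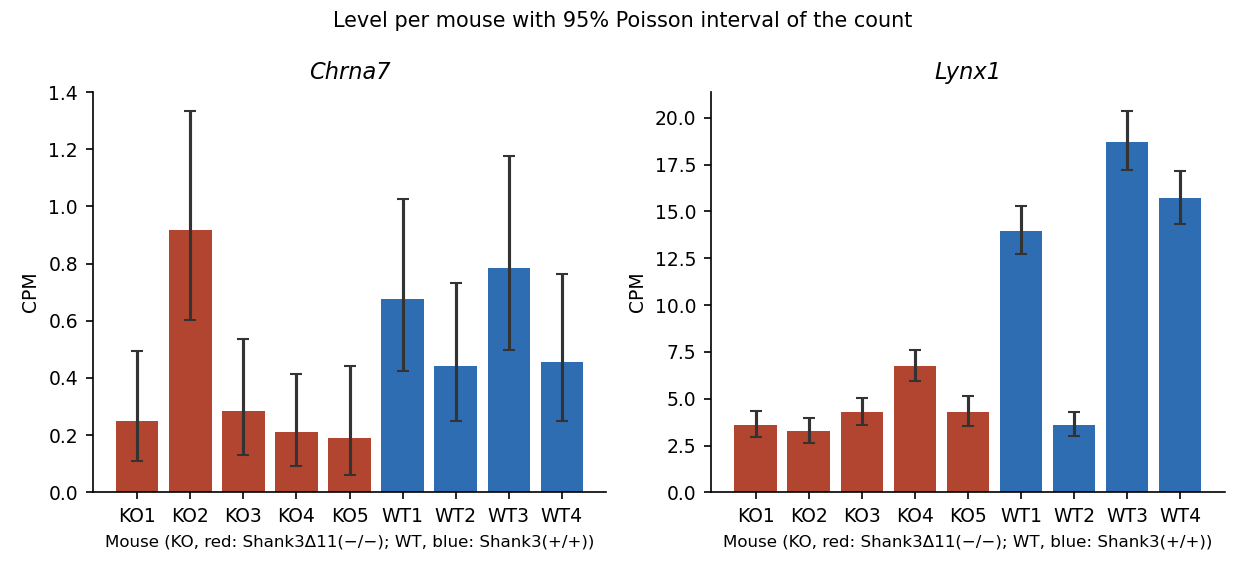
CPM of *Chrna7* (left) and *Lynx1* (right) in each mouse. Bars start at 0 and error bars are 95% Poisson intervals of the count, which cover counting error only; KO mice are red and WT mice blue. KO2 is the highest mouse for *Chrna7*, and WT2, at 3.60 CPM, lies among the KO mice for *Lynx1*.

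The profiles most like the fetal and adult subunits were also named. *Chrng* was most similar to *Sema6b* (r = 0.980), *Gm37858* (r = 0.959) and *Traf3ip3* (r = 0.957). *Sema6b*, a transmembrane semaphorin, was lowest in KO5 (25.6 CPM) and highest in WT4 (47.1 CPM), as *Chrng* was. *Chrne* was most similar to *Slc35b1* (r = 0.986), *6330537M06Rik* (r = 0.972) and *Cplx2* (r = 0.964). *Slc35b1*, a nucleotide-sugar transporter family gene of the endoplasmic reticulum, was at 47.4 CPM in KO5 and 28.5 CPM in WT3, the highest and lowest of the 9 mice for *Chrne* too. Each r is over 9 mice that share scaling, and the genes are the best of 21734.

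Other genes of the receptor pathway showed no called difference. Of 137 genes found in 7 lists (other nicotinic subunits, clustering and anchoring, synaptic transcription, activity-dependent transcription, Ly6/uPAR family, assembly and trafficking, acetylcholine handling), 107 passed the filter in 7 mice. Of these, 48 were higher and 59 lower in KO mice, with a median log2 difference of −0.02 against −0.01 over all genes. By edgeR's quasi-likelihood test, 0 of the 107 passed p below 0.05 with FDR below 25%, as did 0% of all 21809 genes tested. DESeq2 and limma voom also called 0 of the 107. The smallest Benjamini-Hochberg adjusted p in the lists was 1.00. At an unadjusted p below 0.05 stood 3 higher and 2 lower genes, and 2.08% of all genes did so.

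The 5 genes at that unadjusted level were of different roles. *Ache*, the acetylcholinesterase that ends the signal, was at 75.1 ± 6.90 CPM (SD, n = 3) in KO and 96.0 ± 7.05 CPM (SD, n = 4) in WT mice, with a log2 difference of −0.36 ± 0.11 in edgeR, and −0.20 with all 9 mice. *Myod1*, a myogenic transcription factor that binds E-boxes, differed by −0.41 ± 0.13, and by −0.25 with all 9 mice. No member of either gene's list passed the adjusted threshold. KO2, which is outside the 7 mice, had the highest level of both genes (128 and 83.5 CPM).

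*Ly6a* (0.48 ± 0.15) and *Ly6c1* (0.33 ± 0.13), surface proteins of the Ly6 family, and *Chrna10* (0.71 ± 0.29), a nicotinic subunit best known from hair cells, were higher in KO mice. *Chrna10* had only 13 to 31 counts per mouse. *Ly6a* and *Ly6c1* were highest in KO4 (43.6 and 32.2 CPM), which also had the highest sum of endothelial markers (1035 CPM against 728 to 929 CPM elsewhere). KO4 was also highest for the summed macrophage (279 CPM), fibroblast (31714 CPM), cartilage and tendon markers, and *Ly6a* is itself in the fibroblast list. The part of these cells in the Ly6 values was not tested. These 3 genes had all 3 KO above all 4 WT mice (1.54% of genes tested), and *Ache* and *Myod1* had them below (1.3%). In 9 mice none of the 5 kept separate groups, where 0.363% of genes were separate below and 0.322% above. With 9 mice 2 of the 107 genes had an unadjusted p below 0.05, against 2.03% of all genes. They were *Ly6a* and *Pate2*, also of the Ly6/uPAR list and named after its value was seen, and not *Ly6c1*.

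Of these 5 genes, *Ache* and *Ly6a* kept an unadjusted p below 0.05 in edgeR when any 1 of the 7 mice was left out. *Myod1* did not without KO5 (−0.29), *Chrna10* not without KO1, KO5, WT2 or WT3 (0.61 to 0.69), and *Ly6c1* not without KO1, KO3, KO5, WT1 or WT4 (0.27 to 0.34).

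By list, in the 7 mice, 15 of 22 clustering and anchoring genes, 11 of 13 synaptic transcription genes and 21 of 28 activity-dependent transcription genes were lower in KO mice, with medians of −0.04, −0.09 and −0.06. Over all genes tested 11395 of 21809 were lower. Markers of satellite cells and myoblasts were lower for 9 of 10 genes in the same mice, and *Myod1*, *Myog*, *Myf5* and *Msc* are in both that list and the activity-dependent one. The sum of the 10 markers was 538 to 818 CPM over the 5 KO mice and 675 to 842 CPM in WT mice, and its part in these counts was not tested. In the Ly6/uPAR list 14 of 16 tested genes were higher, with a median of 0.19, against 10414 of 21809 genes over all. In the same comparison markers were higher for 9 of 9 endothelial, 8 of 10 macrophage, 7 of 7 erythroid, 5 of 6 adipocyte and 6 of 10 fibroblast genes. The part of these cells in the Ly6/uPAR counts was not tested. *Rapsn*, which clusters the receptor, was at 37.8 to 51.6 CPM over the 9 mice with a log2 difference of −0.10 ± 0.13. *Musk* differed by −0.36 ± 0.23 and *Myog*, a myogenic factor that also drives receptor genes, by −0.21 ± 0.14. *Musk* was −0.11 without KO5 and −0.62 without KO1, and *Myog* was −0.14 without KO5. *Rapsn* was −0.01 without WT4 and −0.19 without KO3.

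The most abundant genes of each list did not pass the test either, and *Chrna4*, *Macf1*, *Gabpa* and *Myh8* changed sign when single mice were left out. *Chrna9* and *Chrna4*, the other nicotinic subunits with the highest levels, were at 5.64 to 12.3 and 4.62 to 8.15 CPM over the 9 mice, with log2 differences of 0.26 ± 0.26 and −0.01 ± 0.17. *Nes* (nestin, an intermediate filament protein enriched at the synapse) was at 420 to 683 CPM with −0.24 ± 0.11, and *Macf1*, a cytoskeletal linker, was at 198 to 287 CPM with −0.03 ± 0.12. *Gabpa*, the ETS factor whose N-box stands in the *Chrne* window, was at 54.1 to 74.2 CPM with −0.04 ± 0.13. *Ptpn11*, a tyrosine phosphatase, was at 100.5 to 149.6 CPM with −0.08 ± 0.13.

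The embryonic myosin *Myh3* was at 3764 ± 1478 CPM (SD, n = 3) in KO and 5017 ± 826 CPM (SD, n = 4) in WT mice, with −0.43 ± 0.26, and KO5 was the lowest of the 9 mice. Without KO5 its difference was −0.14 and without KO3 −0.66. *Myh8* differed by 0.11 ± 0.14. Among assembly genes *Calr*, a chaperone of the endoplasmic reticulum, had 0.25 ± 0.21 with its highest level in KO5 (480 CPM), and turned to −0.03 without KO5. *Prkar1a*, a regulatory subunit of protein kinase A, had −0.13 ± 0.12, and −0.03 without KO3. *Ly6e* (0.20 ± 0.16), *Gpihbp1* (0.17 ± 0.14) and *Ly6h* (0.04 ± 0.18), further Ly6/uPAR genes, and the choline transporter gene *Slc44a2* (−0.07 ± 0.11) did not pass the test. *Ly6e* was 0.0035 without KO3 and *Gpihbp1* 0.08 without KO5, and *Ly6h* was −0.01 without WT3. *Chat*, the enzyme of acetylcholine synthesis in motor neurons, had 0 counts in 9 of 9 mice, which allows up to 0.0105 CPM over the 9 libraries (3 counts).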

How the data were processed

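RNA of the gastrocnemius of 9 newborn mice was sequenced, 1 library per mouse. The deposited values are raw counts of reads per Ensembl gene. Per the study's methods the authors mapped reads to mm10 with HISAT2, kept concordant reads and counted them with featureCounts. Which annotation release was used, whether counting used strand and how multi-mapping reads were handled is not given in the sources used here. *4930544D05Rik* overlaps *Chrne* on the opposite strand and *Gm44741* overlaps *Chrna7*; neither pair shares exon bases in GENCODE M21.

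Symbols, positions and exon lengths came from GENCODE M21, and promoters from RefSeq (GRCm38.p6). CPM used TMM factors over 9 mice. Differences came from edgeR 4.0.16 in R 4.3.3 (filterByExpr with a minimum count of 10 and minimum total of 15, robust quasi-likelihood test, Benjamini-Hochberg), in the 7 mice the study analysed and in all 9 mice. The filter left 21809 and 21735 genes. Calls needed p below 0.05 with FDR below 25%. Alternatives were other scalings and filters, DESeq2 1.42.0, limma 3.58.1 voom, an *Xist* covariate, a replicate block and leaving out each mouse. The script was tested on simulated data. Intervals of counts are exact Poisson intervals and cover counting error only.

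Named genes were the 7 described, of each pathway list those with unadjusted p below 0.05 (at most 3 per direction) and the 2 of highest level, 7 fixed genes, the 3 genes of most similar profile and gene neighbours. The genes and lists were chosen with earlier results of these data known. Separate litters or extraction days are not known, so p-values measure the spread between these mice.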

Additional observations from a re-analysis of the deposited data

Results flagged for a closer look

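3 values stood far from the other mice of their group by Dixon's test at the 95% level, out of 16 groups tested, where chance marks about 1 in 20. *Chrnb1* was at 131.9 CPM in WT2 against 109 to 113 CPM in the other WT mice. *Chrna7* was at 0.916 CPM in KO2 against 0.190 to 0.283 CPM in the other KO mice. The gamma share was 86.3% in KO5 against 94.2% to 96.4% in the other KO mice.

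*Chrne* differed between genotypes in opposite directions in the mice of high and of low *Xist*. The KO minus WT difference of mean log2 CPM was 0.96 in the mice of high *Xist* and −0.56 in those of low *Xist*. These are differences among the 7 mice, with KO3 and KO5 against WT3 and WT4 on the high side and KO1 alone against WT1 and WT2 on the low side, and the difference between them was not tested.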

How the results depend on the processing

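Over 22 alternatives *Lynx1* stayed lower in KO mice (−2.05 to −0.97 on the log2 scale), and so did *Chrna7* over the 21 that gave a value (−1.44 to −0.64); at least 10 counts in every mouse left *Chrna7* out. *Chrna7* was −0.68 with all 9 mice. The alternatives reuse the same mice, and only those with all 9 mice include KO2, the highest mouse for *Chrna7*. *Chrna7* also passed the filter through the WT mice alone. A constant sign over these alternatives is therefore a description and is not read as support. The other 5 genes changed sign under some: 6 for *Chrna1*, 5 for *Chrnb1*, 4 for *Chrne* and 1 each for *Chrnd* and *Chrng*. *Chrne* was 0.96 and −0.56 within the high and low *Xist* mice of the 7, the latter with KO1 as the only KO mouse. The *Chrng* to *Chrna1* ratio was 1.48 per kb of longest transcript. Scalings moved the median of all genes to at most −0.03.

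Of all genes, 0 were called with edgeR (453 at unadjusted p below 0.05). Called were 1 with no filter, 6 with DESeq2 and 1 with the *Xist* covariate, and 972 stood at unadjusted p below 0.05 with no filter. Leaving out 1 mouse gave 0 to 15 calls (15 without KO1, 4 without KO3, 1 without WT2), 224 (without KO5) to 968 (without KO1) genes at unadjusted p below 0.05, and 2 to 11 pathway genes at that level (2 without KO5, 10 without KO1, 11 without KO3). All 9 mice gave 2 pathway genes. The cause was not tested.

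The replicate numbers are not known to pair the mice: deviations of same-numbered mice had r of 0.373, 0.052, 0.357 and 0.101, and not every WT mouse correlated best with its own number. With a replicate block, 9 genes were called and 844 stood at unadjusted p below 0.05 in 7 mice, and 2 were called in 9 mice. Of the pathway genes, 0 were called in 9 mice under the block and 1 stood at unadjusted p below 0.05. Under the block in 7 mice *Ache* (−0.24), *Myod1* (−0.15) and *Chrna10* (0.58) no longer had an unadjusted p below 0.05, *Rapsn* (0.06), *Myog* (0.06), *Myh8* (−0.08), *Calr* (−0.02), *Slc44a2* (0.01) and *Chrna4* (0.03) changed sign, *Musk* was −0.13, *Myh3* −0.10 and *Ly6e* 0.43. *Chrna10* also lost that level with DESeq2 (0.72), and *Ly6c1* with muscle fibre markers as reference (0.30). *Ache*, *Myod1*, *Chrna10* and *Ly6c1* lost it with all 9 mice, with the block or without. *Chrnb1* was 0.10, *Chrnd* 0.02 and *Chrng* 0.01 (7 mice), and *Chrna7* −0.64 (9 mice) under the block. Depth limits *Chrna7*, with 5 to 27 counts per mouse.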
